A study of Mus musculus with 2 samples.

Results

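Acsl1, Cfd, Scd1 and Thrsp are 4 genes of adipocytes and of fatty acid handling, and they were followed in primary mouse osteoblasts given TGF-beta1. Their spots were found by gene name or RefSeq identifier in the annotation of the array, with 1 probe for each gene among 3757 probes, which stand for 3594 named genes. The genes were picked with their values on these arrays known, so the values below describe them and nothing is tested. Primary murine osteoblast cells were starved of serum, at 0.2% FBS in alphaMEM, and 1 sample received 2 ng/ml TGF-beta1 for 24 h while the other was left untreated. Both samples were labelled with Cy3, and each filled 1 array. With 1 sample in each group there was no spread between replicates, and each difference is a difference between these arrays. The labels name no strain, age, bone of origin or passage.

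Acsl1, Scd1 and Thrsp serve the making and use of fatty acids. Acsl1 encodes a long-chain acyl-CoA synthetase, which joins free fatty acids to coenzyme A so that they can be stored or burned. Scd1 encodes stearoyl-CoA desaturase, the endoplasmic reticulum enzyme that puts a double bond into saturated acyl-CoA and so makes oleate and palmitoleate. Thrsp, also called Spot14, encodes a small protein that thyroid hormone and carbohydrate feeding induce in liver and fat, where it promotes lipogenesis. Cfd encodes adipsin, or complement factor D, a serine protease that adipocytes secrete in large amounts and that cleaves factor B in the alternative complement pathway. Osteoblasts and adipocytes arise from shared mesenchymal precursors, and TGF-beta is known to hold back adipocyte differentiation in culture.

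On the TGF-beta1 array the signals of Thrsp and Acsl1 were lower than on the untreated array, that of Cfd was slightly higher, and that of Scd1 was nearly equal. Thrsp had a signal of 387 with TGF-beta1, against 739 untreated. Its log2 ratio of TGF-beta1 over untreated was -0.93, a 1.91-fold lower signal. Acsl1 had 1403 with TGF-beta1, against 2094 untreated, a log2 ratio of -0.58 and a 1.49-fold lower signal. Of the 4 genes, these 2 had log2 ratios farther from 0 than 0.20. That was the SD among the 8 lambda phage control spots, the repeated measure used here. Those spots were dim, so that SD is a rough scale and not the error of any gene.

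Scd1 had a signal of 282 with TGF-beta1, against 281 untreated, a log2 ratio of 0.01. Cfd had 334 with TGF-beta1, against 294 untreated, a log2 ratio of 0.18, which is within the SD of the lambda spots. A probe was taken as detected on an array when its signal was above 87.4, the authors' threshold, set by the brightest lambda spot. All 4 genes were above it on both arrays, and so were 21.2% of all probes. Their signals lay between 3.21 and 24.0 times the threshold. A lower signal from a bulk culture cannot tell fewer cells of a type from less RNA per cell.

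**Figure D1:**
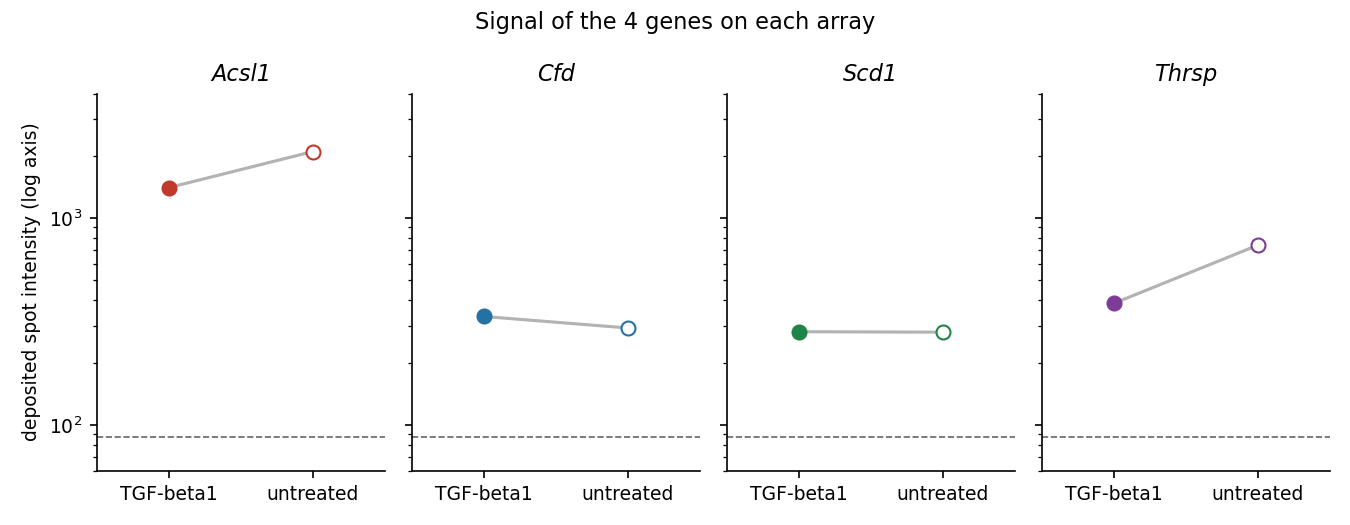
Deposited spot intensity of each gene on the TGF-beta1 array (filled circle, left) and on the untreated array (open circle, right), 1 spot per array, on a log axis. The dashed line is the signal threshold of 87.4. All points lie above it, and Thrsp and Acsl1 show the drop on the TGF-beta1 array, to 387 against 739 and to 1403 against 2094.

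Promoter sequences are shown for the genes with the lower signals, Thrsp and Acsl1, and for Cfd as a gene without that difference. They are the 250 bases before the start site in RefSeq's annotation of build GRCm38.p6, and 3 of the 4 genes matched the table used. Acsl1 has 2 start sites in it, and which of them the labelled cDNA came from is not known from the array. The capitals mark CAGAC or its reverse complement GTCTG, letters that occur in DNA elements bound by Smad proteins, which carry the TGF-beta signal. The Thrsp stretch lies at chr7:97417551-97417800 on the minus strand, those of Acsl1 at chr8:46470787-46471036 and chr8:46490716-46490965 on the plus strand, and that of Cfd at chr10:79890603-79890852 on the plus strand.
Thrsp: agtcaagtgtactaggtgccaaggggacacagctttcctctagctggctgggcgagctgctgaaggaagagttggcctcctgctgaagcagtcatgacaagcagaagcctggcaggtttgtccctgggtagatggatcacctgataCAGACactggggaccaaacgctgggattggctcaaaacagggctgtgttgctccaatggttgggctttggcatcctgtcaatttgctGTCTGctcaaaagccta
Acsl1, first start site: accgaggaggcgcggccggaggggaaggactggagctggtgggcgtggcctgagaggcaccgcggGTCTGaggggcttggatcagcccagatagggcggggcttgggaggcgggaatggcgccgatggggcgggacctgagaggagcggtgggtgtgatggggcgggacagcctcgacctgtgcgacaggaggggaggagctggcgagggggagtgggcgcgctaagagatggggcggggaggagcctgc
Acsl1, second start site: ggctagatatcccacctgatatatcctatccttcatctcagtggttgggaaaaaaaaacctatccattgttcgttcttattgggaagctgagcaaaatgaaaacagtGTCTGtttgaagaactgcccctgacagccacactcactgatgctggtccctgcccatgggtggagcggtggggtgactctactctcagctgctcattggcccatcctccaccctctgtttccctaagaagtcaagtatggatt
Cfd: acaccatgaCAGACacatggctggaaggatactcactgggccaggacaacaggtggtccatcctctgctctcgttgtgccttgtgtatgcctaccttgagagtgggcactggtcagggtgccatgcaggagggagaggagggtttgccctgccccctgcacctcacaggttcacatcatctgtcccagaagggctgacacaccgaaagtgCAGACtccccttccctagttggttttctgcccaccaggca

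All 4 stretches held CAGAC or GTCTG. It stood 2 times in the Thrsp stretch, 1 time in each Acsl1 stretch and 2 times in the Cfd stretch, and 42.2% of 32851 promoters of the same length held it at least once. CCAAT, the box bound by NF-Y, or its reverse complement ATTGG stood 2 times before Thrsp, 2 times before the second start site of Acsl1 and 0 times before the first one and before Cfd. It was present in 33.9% of promoters. GGGCGG or CCGCCC, the GC box of Sp1, stood 4 times before the first start site of Acsl1 and 0 times in the other 3 stretches, against 32.7% of promoters with at least 1. The E-box CANNTG, which reads the same way on both strands, stood 2 times before Thrsp, 0 and 2 times before the start sites of Acsl1 and 3 times before Cfd, against 66.2% of promoters with at least 1. Matches were counted on both strands and were allowed to overlap, and a match describes the letters only.

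By direction alone, 2 of the 4 genes were lower and 2 higher, against 46.8% and 53.2% of the 795 probes above the threshold on both arrays. None of the 4 genes differed by 2-fold. Among the 795 probes, 2.26% were at least 2-fold lower with TGF-beta1 and 1.51% at least 2-fold higher. At 1.5-fold, Thrsp was the 1 of 4 that was lower, with Acsl1 just short of it, against 8.18% of the 795 probes. None was 1.5-fold higher, against 7.17%. In the order of log2 ratios, 27 of the 795 probes lay below Thrsp, or 3.40%, and 67 lay below Acsl1, or 8.43%. Scd1 was near the middle, with 47.7% of probes below it, and Cfd had 66.3% below it. The median of all 795 was 0.03 and the central 90% ran from -0.76 to 0.65, so that Thrsp lay outside this range and the other 3 genes inside it.

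**Figure D2:**
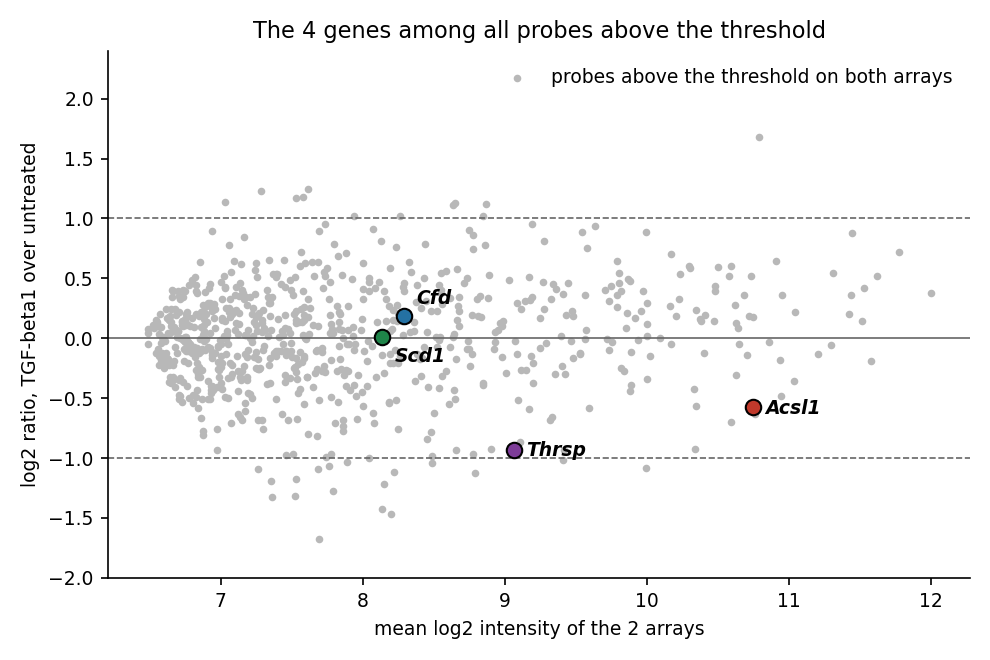
Log2 ratio of TGF-beta1 over untreated against the mean log2 intensity of both arrays, for the 795 probes above the threshold on both (grey) and the 4 genes (coloured). Dashed lines mark 2-fold. Thrsp sits just inside the lower line, Acsl1 at -0.58 among the bright probes, and Scd1 and Cfd near the middle.

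The probes closest to each gene in log2 signal on both arrays, over 2 arrays, had these ratios. For Thrsp they were Apoa4, the apolipoprotein of intestinal lipid particles, with a log2 ratio of -0.86, the endosomal sorting gene Vps26c with -0.93, and Cidea, a lipid droplet protein of brown fat, with -0.59. Acsl1 was closest to the methyltransferase Inmt at -0.64, Hdgfl2 at -0.70 and the muscarinic receptor Chrm4 at -0.31. Cfd was closest to Saa4, Plxna1 and Ghrh, with 0.15, 0.21 and 0.14. Scd1 was closest to the retinal reductase Dhrs3, the ribosomal protein Rpl10a and Pafah1b3, with 0.06, 0.13 and -0.14. This likeness is one of brightness and ratio over a pair of arrays.

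Place on the array moved with the ratios and bears on Acsl1 most. The array has 48 blocks, and Acsl1 stands in block C4, which had the lowest median log2 ratio of all of them. Over the 14 probes of C4 above the threshold on both arrays the median was -0.41, and 12 of the other 13 were below 0. Acsl1 was not extreme among them, since 4 had a lower ratio. They were the growth factor Fgf17 at -0.96, elastin, Eln, at -0.94, the translation factor Eif4e at -0.71 and the eosinophil peroxidase Epx at -0.69. The highest of the block was the sterol isomerase Ebp, at 0.41. After the median of these 14 was subtracted, the log2 ratio of Acsl1 was -0.17.

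The size of this adjustment for Acsl1 depended on which probes stood for the block. With the 18 probes of C4 detected on 1 or both arrays, the median was -0.49 and Acsl1 became -0.093. With all 77 probes of C4 that had a ratio, most of them dim, it was -0.84 and Acsl1 turned to 0.26, higher on the TGF-beta1 array. With neighbours within 2 rows and 2 columns, Acsl1 was -0.48 against 3 detected probes and 0.25 against all 24. None of the 8 spots directly around Acsl1 passed the threshold on both arrays, and their signals ran from 1.99 to 60.1 with TGF-beta1, against 19.0 to 67.8 untreated. The signals of these 8 spots differed between the arrays, TGF-beta1 minus untreated, by -21.7 to 5.34, and their median log2 ratio was -1.03. The signal of Acsl1 differed by -691, a size that spots this dim could not show. The median signal differences of the block and of the neighbours were -16.7 and -12.5, too small beside a signal of 1403 to move its ratio, which was -0.56 and -0.57 with them taken off.

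Thrsp was the lowest of the 26 probes of its block, E1, that were above the threshold on both arrays. The block's median was -0.10, and subtracting it left -0.83. Next after Thrsp came Tpd52 at -0.78, the translationally controlled protein Tpt1 at -0.76 and the muscle troponin Tnnc2 at -0.69, which stands in the same row of spots. The 7 detected neighbours had a median of -0.26, and all 19 neighbours had -0.37, which left -0.68 and -0.56. With the median signal differences of the block and of the neighbours taken off, -14.8 and -22.4, Thrsp was at -0.88 and -0.85, and these were likewise small beside its signal. Its sign stayed negative under all 14 alternatives, from -1.03 after loess to -0.56, whereas Acsl1 was negative under 12 of 14. Several of the alternatives could hardly turn the sign of Thrsp or Acsl1. The deposited ratio is the same quotient, the divisions shift every log2 ratio by a small constant, and the offset only shrinks ratios. Loess placed Thrsp past 2-fold lower, the only alternative that did so for any of the 4 genes.

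**Figure D3:**
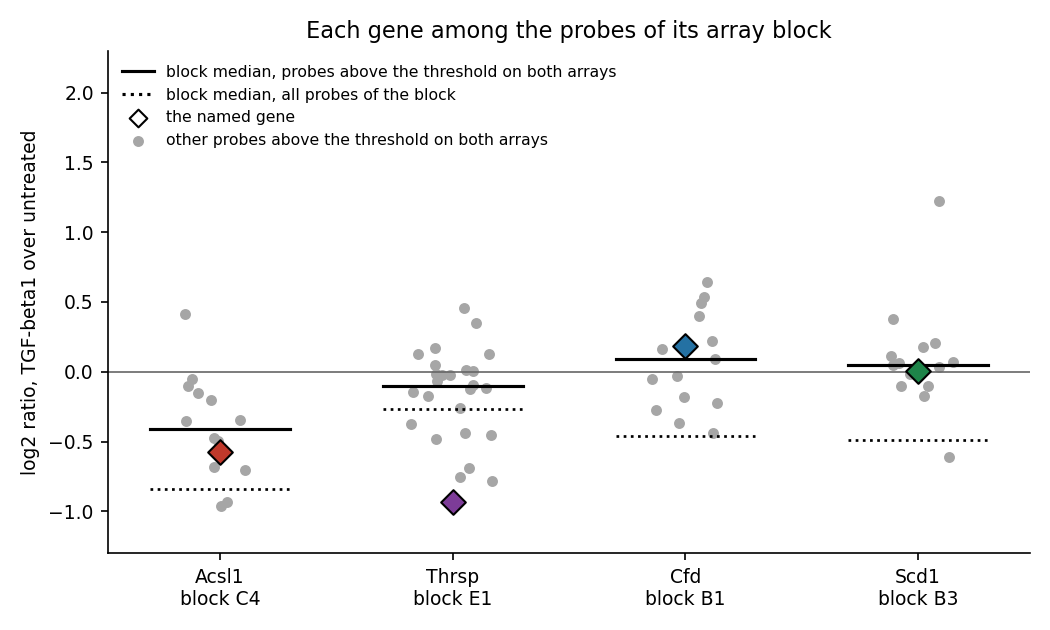
Log2 ratios of TGF-beta1 over untreated in the array block of each gene. Grey points are the other probes above the threshold on both arrays, the diamond is the named gene, and the solid and dotted lines are the block medians over those probes and over all probes of the block. Acsl1 lies between the medians of C4, at -0.41 and -0.84, while Thrsp lies below each point of E1.

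Cfd and Scd1 stood in blocks whose detected probes had medians near 0. In block B1 the 15 probes above the threshold on both arrays had a median of 0.09, with 9 of them below Cfd. The 6 detected neighbours of Cfd had a median of 0.31, and after its subtraction Cfd was at -0.12. In the same row as Cfd stood the beta-adrenergic receptor of fat, Adrb3, with 2400 with TGF-beta1, against 1536 untreated. In block B3 the median over 15 such probes was 0.05, and Scd1 became -0.04 after its subtraction. Over all probes both blocks were lower, at -0.46 for B1 and -0.49 for B3, and subtracting these gave 0.64 for Cfd and 0.50 for Scd1. The sign of both genes thus turned with the probes that stood for the surroundings. That of Scd1, so near 0, also turned without them, to -0.0038 after division by the total signal and -0.020 after loess.

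**Figure D4:**
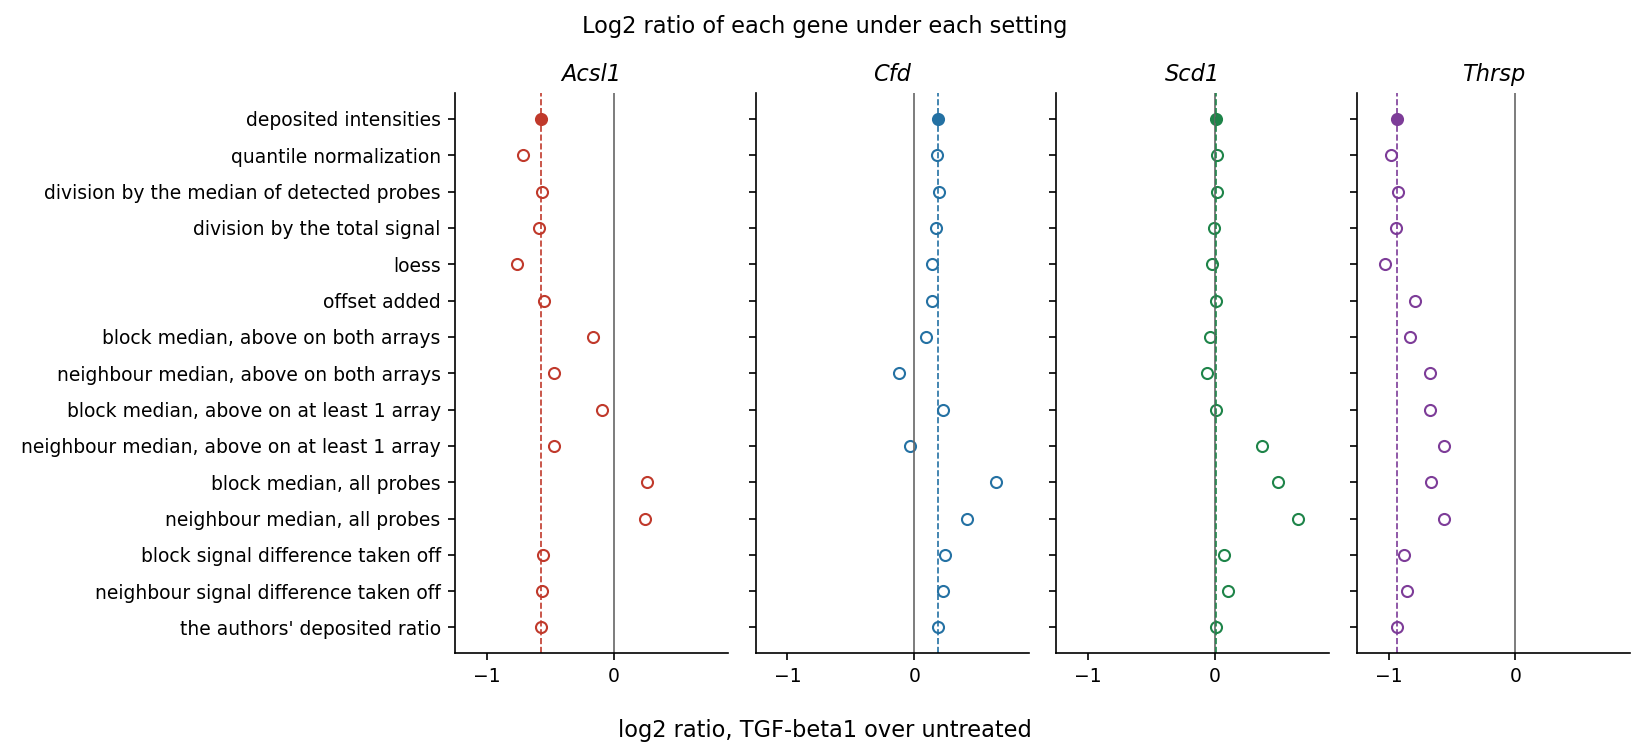
Log2 ratio of TGF-beta1 over untreated for each gene under each setting, with the deposited intensities as the filled circle and dashed line. Thrsp stays below 0 throughout, from -1.03 to -0.56, and Acsl1 crosses 0 in the settings that subtract a median over all probes, bright and dim.

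Scd1 has a close relative on the array. Scd2, the desaturase isoform of brain and other tissues, stood in the spot next to Scd1 and stayed under the threshold on each array, with 55.7 with TGF-beta1, against 64.5 untreated. Whether the Scd1 probe also binds the RNA of Scd2 was not tested. Acsl4, an acyl-CoA synthetase that prefers arachidonate, was under the threshold too, with 26.1 with TGF-beta1, against 29.9 untreated.

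Thrsp and Scd1 belong to a list of fatty acid and triglyceride synthesis. The array carried 9 genes of this list, and 3 of them exceeded the threshold on both arrays, beside 21.2% of all probes. They were Thrsp, Scd1 and Lpin1, the phosphatidate phosphatase of triglyceride synthesis, which had 228 with TGF-beta1, against 301 untreated, a log2 ratio of -0.40. By their ratios 2 lay below 0 and 1 above, and the median was -0.40. Over the 795 probes above the threshold on both arrays the median was 0.03, with 46.8% lower and 53.2% higher. All 3 were lower once the arrays were scaled by loess, and also by their total signal. The same held after subtraction of block or neighbour medians over probes detected on both arrays. The other 6, Elovl3, Scd2, G6pdx, Dgat1, Gpam and Fads2, were under the threshold on both arrays.

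Acsl1 belongs to a list of acyl-CoA synthetases and fatty acid carriers with 14 genes on the array, of which 3 were above the threshold on both arrays, 2 lower and 1 higher, with a median of -0.13. Of all probes 21.2% passed the threshold on both arrays, and 46.8% of those were lower. Fabp5 and Crabp1 passed it on the untreated array alone, a filter that fixes their direction, and with them the list had 4 lower and 1 higher and a median of -0.39. Of the 995 probes detected on 1 or both arrays, 26.5% of all, 50.4% were lower and 49.6% higher. Subtraction of block medians over detected probes gave 3 lower and 2 higher. That of neighbour medians over probes detected on both arrays gave 2 of each, over 4 genes, since Crabp1 had too few such neighbours. Fabp5, the epidermal fatty acid binding protein, had 71.9 with TGF-beta1, against 147 untreated, at least 1.68-fold lower. Crabp1, the cellular retinoic acid binding protein, was at least 1.29-fold lower on the same basis. Acss2, which makes acetyl-CoA from acetate, had a log2 ratio of -0.13, and Fabp6, the bile acid carrier of the ileum, had 310 with TGF-beta1, against 224 untreated, or 0.47. In the authors' own class of simple lipid metabolism, which holds Acsl1, 10 of 46 probes were above the threshold on both arrays, 5 higher and 5 lower, with a median of -0.02. Of these 10, Pdha2, the testis form of a pyruvate dehydrogenase subunit, was the only one with a lower ratio than Acsl1, at -0.77.

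Of 16 genes of fatty acid oxidation 3 were above the threshold on both arrays, beside 21.2% of all probes. These 3 were 2 higher and 1 lower, beside 53.2% higher among all probes above it on both, and their median was 0.0098. After quantile normalization, loess or division by the total signal 1 was higher and 2 lower. The same counts came with every position adjustment except neighbour medians over all probes. Cpt1b, the muscle form of the transferase that brings fatty acids into mitochondria, had 88.9 with TGF-beta1, against 118 untreated, a log2 ratio of -0.41, and Eci1, an isomerase for unsaturated fatty acids, had 0.01. Cyp4a14, a fatty acid hydroxylase, was the third, with 1.02. Of 14 genes of cholesterol synthesis and lipoproteins 1 was above the threshold on both arrays, beside 21.2% of all probes. The list thus has no median of its own. That 1 gene was Apoa4, which had 409 with TGF-beta1, against 745 untreated, 1.82-fold lower. The lipoprotein receptor Lrp1 passed the threshold on the untreated array alone, which fixes its direction, and was at least 1.20-fold lower. No enzyme of cholesterol synthesis among Dhcr7, Fdft1, Sqle, Nsdhl, Cyp51 and Hsd17b7 was above the threshold on either array.

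The array carried 12 adipocyte markers, of which 7 exceeded the threshold on both arrays, 6 higher and 1 lower with TGF-beta1, or 5 and 2 when scaled by total signal, with a median of 0.18. Of the 795 probes above the threshold on both arrays 53.2% were higher, and Cfd is 1 of the 6. Subtraction of neighbour medians over probes detected on both arrays left 5 values, 3 higher and 2 lower, and over probes detected on at least 1 array 6 values, 4 higher and 2 lower. Agt, the angiotensinogen that fat and liver secrete, had 820 with TGF-beta1, against 468 untreated, 1.75-fold higher. Adrb3 was 1.56-fold higher, and Pck1, the enzyme of glyceroneogenesis, had 857 against 668 untreated, a log2 ratio of 0.36. Cidea, which guides the fusion of lipid droplets, was the lower one, with 471 with TGF-beta1, against 708 untreated, 1.51-fold lower. Ucp1, the uncoupling protein of brown fat, and the glucose transporter Slc2a4 had log2 ratios of 0.01 and 0.04.

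The 7 of 12 above the threshold on both arrays stand beside 21.2% of all probes. Shares above that were not particular to adipocyte markers, with 4 of 9 osteoblast and 5 of 10 skeletal muscle markers above it on both. Of the macrophage and leukocyte markers 1 of 11 was, and of the endothelial and cartilage markers none. The other 5 adipocyte markers were under the threshold on both arrays. Lpl, the lipase that frees fatty acids from lipoproteins, had 31.0 with TGF-beta1, against 32.6 untreated. The fatty acid translocase Cd36 had 75.8 against 65.4 untreated, and the hormone-sensitive lipase Lipe had 58.6 against 63.2 untreated. Car3, a carbonic anhydrase, and Nnat, neuronatin, were the remaining ones, with 42.8 against 43.0 untreated and 39.5 against 36.7 untreated. Adipoq, Lep, Fabp4 and Plin1 had 0 matched probes and were not analysed here. The signals of the 12 markers summed to 5451 with TGF-beta1, against 4229 untreated. Nearly all of that net difference lay in Adrb3 and Agt, while Pck1, which was higher, and Cidea, which was lower, largely offset each other. The part of adipocytes in the culture in these results was not tested.

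Of the 10 adipogenic regulators with a probe 2 passed the threshold on both arrays, beside 21.2% of all probes, and their median was 0.20. The Krüppel-like factor Klf5, an activator early in adipogenesis, had 128 with TGF-beta1, against 94.4 untreated, a log2 ratio of 0.44. Stat5b had 243 against 251 untreated, or -0.05, which turned positive after quantile normalization. Pparg, the nuclear receptor that directs adipogenesis, had 6.33 with TGF-beta1, against 17.3 untreated, and Cebpb had 4.65 against 14.7 untreated, far under the threshold. Nr2f2, Ppargc1a, Foxc2, Nr1h3, Id2 and Thrb were under it as well. Thrb, a thyroid hormone receptor and so upstream of Thrsp in liver, stood in the spot next to Thrsp, with 43.7 with TGF-beta1, against 57.9 untreated.

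Cfd also belongs to a list of complement genes, 21 of which were on the array. Above the threshold on both arrays were 5, Cfd among them, beside 21.2% of all probes. These 5 were 4 higher and 1 lower with TGF-beta1, with a median of 0.18, beside 53.2% of probes that were higher. Cd46 and C4b passed the threshold on the TGF-beta1 array alone, a filter that fixes their direction, and with them the median was 0.19. Neighbour medians over probes detected on both arrays could be subtracted for 5 of these 7 genes. Masp2 and C1qb, both higher, had too few such neighbours. The median of those 5 was -0.12, with 2 higher and 3 lower, so that the set changed along with the median. Masp2, a protease of the lectin pathway, had 466 with TGF-beta1, against 408 untreated, a log2 ratio of 0.19. The mannose-binding lectin Mbl2 was at 1.14, and Mbl1, its close relative, was the lower one, at -0.16. C1qb, a subunit of the classical pathway's C1q, was at 0.17. Cd46 was at least 1.15-fold higher and C4b at least 1.04-fold. Cfb, the substrate of adipsin, was under the threshold on both arrays, with 53.4 with TGF-beta1, against 54.6 untreated.

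**Figure D5:**
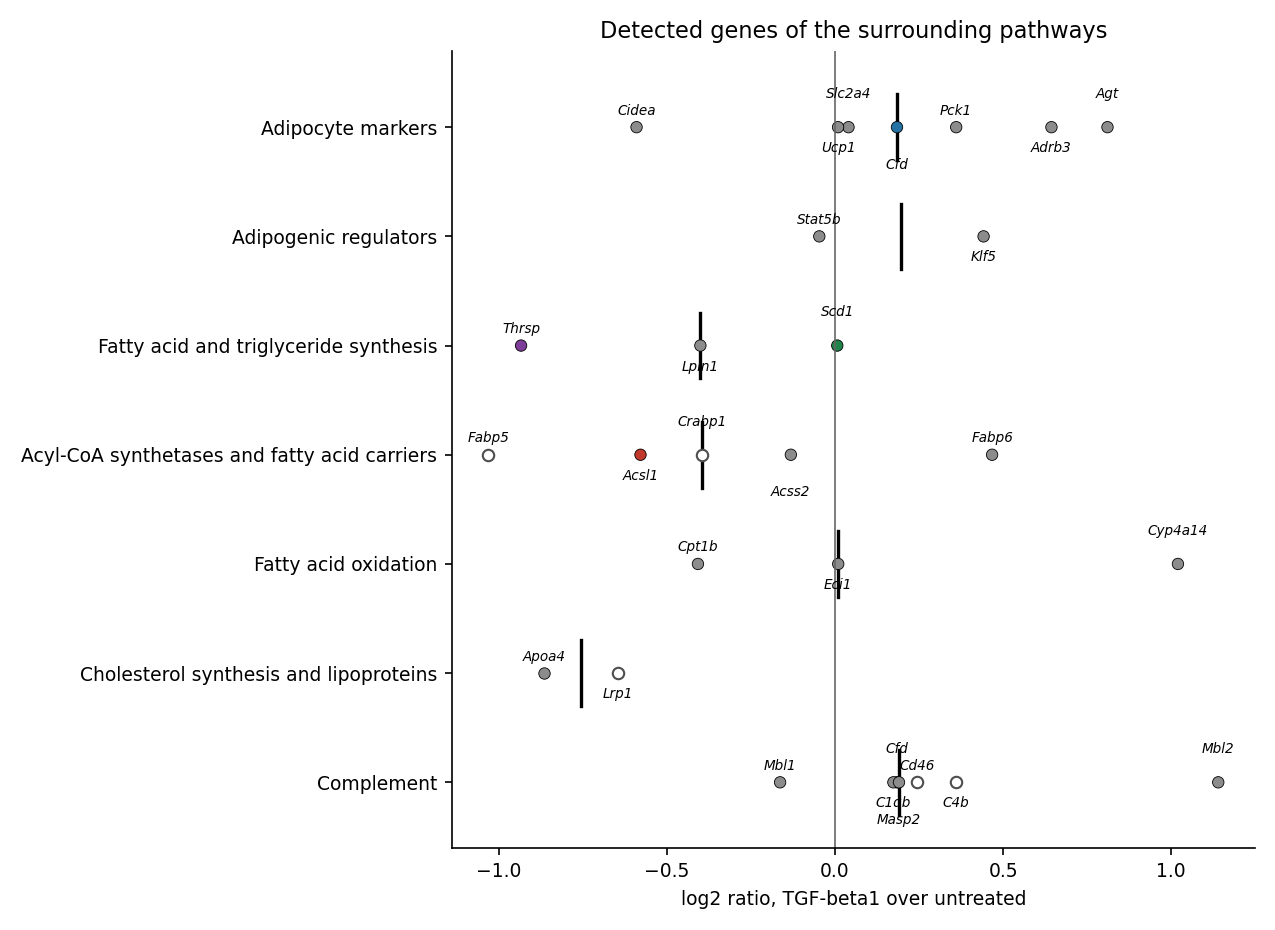
Log2 ratio of TGF-beta1 over untreated for each gene above the threshold on at least 1 array, by list. Filled points are above it on both arrays, open points on 1 array only, coloured points are the 4 genes and the vertical bar is the list's median. Thrsp and Acsl1 lie at the lower side of their lists, and open points have a direction fixed by the filter.

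Of 9 osteoblast markers with a probe 4 passed the threshold on both arrays, 1 higher and 3 lower, with a median of -0.03. Bglap, the gene of osteocalcin, had 840 with TGF-beta1, against 846 untreated, and the collagen chain Col1a2 had 1132 against 1174 untreated. The matrix protein gene Sparc had 631 against 946 untreated, a log2 ratio of -0.58, and the phosphatase Alpl had 124 against 94.1 untreated. Above it on the untreated array alone, which fixes their direction, Ibsp, the gene of bone sialoprotein, had 47.9 with TGF-beta1, against 240 untreated, at least 2.74-fold lower, and the cadherin Cdh11 was at least 1.62-fold lower. Ank, which exports pyrophosphate, passed with TGF-beta1 alone, with 88.3 against 63.7 untreated. Together these 7 had a median of -0.05 with 2 higher and 5 lower, but 4 higher and 3 lower after subtraction of block medians over detected probes and 5 and 2 with block medians over all probes. The 9 markers summed to 3080 with TGF-beta1, against 3629 untreated. Runx2, Sp7, Col1a1 and Spp1 had 0 matched probes. Of other cell types, 1 of 11 macrophage and leukocyte markers passed the threshold on both arrays, at a log2 ratio of 1.02, and 3 more passed it on 1 array. The filter fixes the direction of these 3, which were at least 2.32-fold lower, 1.91-fold lower and 1.07-fold higher. With them the leukocyte list had 2 higher and 2 lower, and a median of -0.46. Of 10 skeletal muscle markers 5 passed the threshold on both arrays, 2 higher and 3 lower, with a median of -0.07, and 1 more on 1 array. Neither of the 2 endothelial markers and none of the 6 cartilage markers on the array were detected. The signal sums with TGF-beta1 and untreated were 978 against 955 for leukocytes, 2087 against 2415 for muscle, 67.0 against 108 for endothelium and 249 against 241 for cartilage, and their part in the results was not tested.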

How the data were processed

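The authors deposited 1 spot intensity per probe and array, on a linear scale, from 1 TGF-beta1 and 1 untreated sample. Per the file headers, the values came from an Atlas Iris 1.01 workbook for the Atlas Glass Mouse 3.8 array and a normalization named global. Of the TGF-beta1 intensities 3 were below 0, so that a background had been taken off, and the way it was estimated is not given in the sources used here. The deposited ratio per spot was TGF-beta1 over untreated intensity, and 3754 of 3754 ratios equalled the quotient within 0.0001. The array has 3774 spots, of which 17 control spots were left out. Summed signals were 431093 with TGF-beta1 and 427889 untreated, and 866 and 924 probes exceeded the threshold of 87.4. In 8 sheets, 16 columns of per-sample values had names that match no label and were not used. The text of the software version and of the functional classes was read per the file headers, with no score or other value in it.

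Symbols came from the accession of each spot and RefSeq's gene table of GRCm38.p6, which named 3597 probes. No replicate exists, so no test was run. The log2 ratio of intensities had nothing added. A fold bound is the bright signal divided by the dim one or, if that is higher, by the smallest detected signal of the array on which the probe was dim. The members, the 12 gene lists and the alternatives were chosen with earlier results of these data known. The genes named are the 4 members, the 3 probes nearest to each in log2 signal, and up to 4 detected genes per list by absolute log2 ratio. From the leukocyte, muscle, endothelial and cartilage lists no gene was named by this rule. Some other genes named were chosen after their values were seen. They are Slc2a4, Ucp1, Acss2, Mbl1, C1qb, Pdha2, the osteoblast markers and the genes under the threshold. The neighbours on the array and the other probes of the members' blocks were chosen in the same way. Alternatives were quantile normalization, division by a median or by the total, loess with a span of 0.4, an offset of 96.7 and position adjustments. The position adjustments over all probes, over probes detected on at least 1 array and by signal difference were added after the data were seen. The adjustments were tried on simulated data, with block shifts alike for bright and dim probes or with constant block offsets. That trial cannot tell which position adjustment suits these arrays, where block medians differed between detected and all probes. Python 3.11.15, pandas 2.3.3 and statsmodels 0.14.6 were used.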

Additional observations from a re-analysis of the deposited data

How the results depend on the processing

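Each value comes from single spots, and the dim spots lie close to the lambda controls, which limits what these arrays can show. No paired analysis was possible because each group holds 1 sample, and leaving out a sample was not possible for the same reason. All 4 genes stayed above the threshold on both arrays at the mean of the lambda spots, 67.0, and at 1.5 times the brightest one. A move is counted when a log2 ratio changed by more than 0.20, the SD of the lambda spots, and the cause of the moves was not tested.

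Quantile normalization, the divisions, loess, the offset and the deposited ratio moved none of the 4 log2 ratios, nor did the signal differences, which are small beside these signals. The deposited ratio is the same quotient and so could not move them. Acsl1, at -0.58, became -0.17 and -0.093 with block medians over probes detected on both and on at least 1 array, and it reversed to 0.26 and 0.25 with block and neighbour medians over all probes. Cfd, at 0.18, became -0.12 and -0.035 with neighbour medians over probes detected on both and on at least 1 array, and 0.64 and 0.41 with block and neighbour medians over all probes. Scd1, at 0.01, became 0.37 with neighbours detected on at least 1 array, and 0.50 and 0.65 with block and neighbour medians over all probes. Thrsp, at -0.93, became -0.68 and -0.56 with neighbours detected on both and on at least 1 array, -0.67 with block medians over those on at least 1 array and over all probes, and -0.56 with all neighbours. The count of genes at least 2-fold lower was 0, and it was 1 after loess and 1 at a threshold of 1.5-fold, Thrsp in both cases.

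The median of adipocyte markers, 0.18, became 0.64 and 0.41 with block and neighbour medians over all probes. That of adipogenic regulators, 0.20, became -0.057 over all members on the array. The median of acyl-CoA synthetases and carriers, -0.39, became -0.17, -0.093 and -0.084 with block medians over probes detected on both arrays, on at least 1 and over all probes. It became -0.13 with all neighbours, -0.16 over all members and -0.13 over members detected on both arrays. With neighbours detected on both arrays it reversed to 0.032, over 4 of the 5 genes, without Crabp1. The medians here include genes above the threshold on 1 array only, whose direction the filter fixes. That of the 2 cholesterol and lipoprotein genes, -0.75, became -0.52 with the offset, -0.49 with neighbours detected on at least 1 array, and -0.44 over all members. With neighbours detected on both arrays Apoa4 alone had a value, -0.53. The median of complement genes, 0.19, became 0.43 with block medians over all probes. With neighbours detected on both and on at least 1 array it became -0.12 and -0.035, over 5 of the 7 genes. The leukocyte median reversed from -0.46 to 1.02 over the 1 member detected on both arrays, and the muscle median from -0.29 to 0.016 with all neighbours. The medians of fatty acid synthesis, fatty acid oxidation and osteoblast markers moved by more than 0.20 under none of 17 alternatives. Their signs were less steady, since the last 2 medians lay near 0. Synthesis kept its sign under 17 of 17, oxidation under 6, from -0.18 to 0.03, and the osteoblast markers under 11, from -0.20 to 0.14.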
